A study of Mus musculus with 96 samples.

Results

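The 10 genes of the endothelial junction and the vessel wall described here, Cdh5, Pecam1, Esam, Cldn5, Cgnl1, Adgrf5, Emcn, Ramp2, Egfl7 and Plvap, were followed from pre-haematopoietic stem cells (pre-HSCs) to fetal liver haematopoietic stem cells (HSCs). They are 10 of the 19836 genes in the table of read counts and were taken by gene symbol, and each was found on a single row. The study profiled 96 single cells of C57BL/6 mouse embryos by SMART-Seq, with 1 cell sorted into each well. At E11.5, 48 pre-HSCs came from the aorta-gonad-mesonephros (AGM) region and 16 from the yolk sac, and both groups were gated as Ter119-CD11b-CD144+c-kit+EPCR+. Fetal liver HSCs numbered 16 at E12.5, gated as Ter119-Sca-1+c-kit+EPCR+, and 16 at E14.5, gated as Ter119-Sca-1+c-kit+CD48-CD150+. No treatment or mutation is named for any group. The comparison asked how pre-HSCs at E11.5 and HSCs of the liver differ, to follow the passage from one to the other. CD144 is the protein of Cdh5, so both E11.5 gates selected on the product of 1 of the 10 genes, and the liver gates did not. Tissue, embryonic day and gate change together between the AGM region and the liver and cannot be told apart. Embryonic day and gate also change together between the E12.5 and E14.5 liver.

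Endothelial cells are held together by adherens junctions built on VE-cadherin and by tight junctions built on claudins, with immunoglobulin-family adhesion proteins at the same borders. The first HSCs of the embryo arise from haemogenic endothelium of the aorta, leave the endothelial layer as rounded cells and later colonise the fetal liver. Several endothelial surface proteins stay on HSCs after that step and are used as HSC markers, ESAM and EPCR among them.

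Since the labels do not tie cells to embryos or litters, a group counts as 1 sample here: its reads were summed over its cells, and no test between groups was possible. Levels are given as CPM, a gene's reads per 1000000 reads of the group or cell, and log2 ratios were taken after 1 CPM was added, so that folds of weakly read genes come out too small. Intervals are exact 95% intervals for counting error alone. Those of reads treat every read as a separate molecule. PCR copies of 1 molecule could not be told apart, so the intervals of reads can be too narrow. Where 4 values are given together, they stand for AGM, yolk sac, E12.5 liver and E14.5 liver cells, in that order. The cells held 250235 to 1926882 reads, with medians of 5522.5, 5349.5, 4036 and 4839 genes detected per cell in the 4 groups. Haematopoietic markers were read in the cells of every group, at medians of 9, 7.5, 7.5 and 8 of 12 listed markers. Some cells stood apart. In 8 cells more than 9000 genes were detected, 4 of them from the AGM region, 3 from the yolk sac and 1, cell 1, from the E12.5 liver. E12.5 liver cell 8 had 1011 genes and 0 of the 12 haematopoietic markers, and its macrophage markers summed to 21591.7 CPM. AGM cell 3 had the highest summed level of the 10 genes, 18204 CPM, with 3 of 12 haematopoietic markers.

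Between the AGM pre-HSCs and the liver HSCs the 10 genes parted into groups. Cdh5, Cldn5, Cgnl1, Adgrf5 and Plvap were at least 4-fold lower than in AGM cells at both liver stages, and the share of cells with a read of them was under 50% of the AGM share. Esam, Emcn and Egfl7 met neither condition at either stage. Pecam1 and Ramp2 met one condition and not the other at one stage or both. These classes are called lost, persisting and mixed below. Of 8625 genes with a read in at least 25% of AGM cells, 3.01% were lost, 69.4% were persisting and 27.6% were mixed under the same rule, against 5, 3 and 2 of the 10 genes. Among the 4565 genes at least as high and as widespread in AGM cells as the lowest of the 10, 1.51% were lost and 83.9% persisting. The 10 genes and the lists of related genes used below were chosen with earlier results of these data known. The AGM gate, unlike the liver gates, also selected on the protein of Cdh5, a lost gene. The comparisons with all genes, here and below, are therefore descriptions and cannot test for selective loss.

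By fold alone, 7 of the 10 genes were at least 4-fold lower in E12.5 liver than in AGM cells, where 11.1% of 15239 genes with at least 30 reads were. At E14.5 it was 6 of 10, against 10.7% of all genes. In yolk sac pre-HSCs 2 of 10 were at least 4-fold lower than in AGM cells, against 5.5% of all genes. From E12.5 to E14.5 none of the 10 was 4-fold lower on this scale, against 8.45% of all genes. None was at least 4-fold higher in the yolk sac, E12.5 liver or E14.5 liver than in AGM cells, nor at E14.5 over E12.5, where the shares of all genes were 2.09%, 5.72%, 5.43% and 8.87%. The median log2 ratio of the 10 genes over AGM cells was -1.51, -2.44 and -3.59 in the yolk sac and the earlier and later liver, beside -0.20, -0.20 and -0.23 for all genes. With a floor of 3 reads per group in place of the added 1 CPM, the medians were -1.52, -2.65 and -3.65. The 3 comparisons share the AGM cells. Without AGM cell 3 the E12.5 count was 5, since Pecam1 and Ramp2 came under 4-fold. Without the 8 cells with more than 9000 genes the yolk sac count was 4, with Cdh5 (-2.01) and Cldn5 (-2.61) added, and the liver counts were again 7 and 6. Without those 8 cells there were 4 lost genes, Cgnl1 being left out, and 3 persisting. The same held without any 1 of 12 of the 16 E12.5 cells, cell 8 among them.

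**Figure D1:**
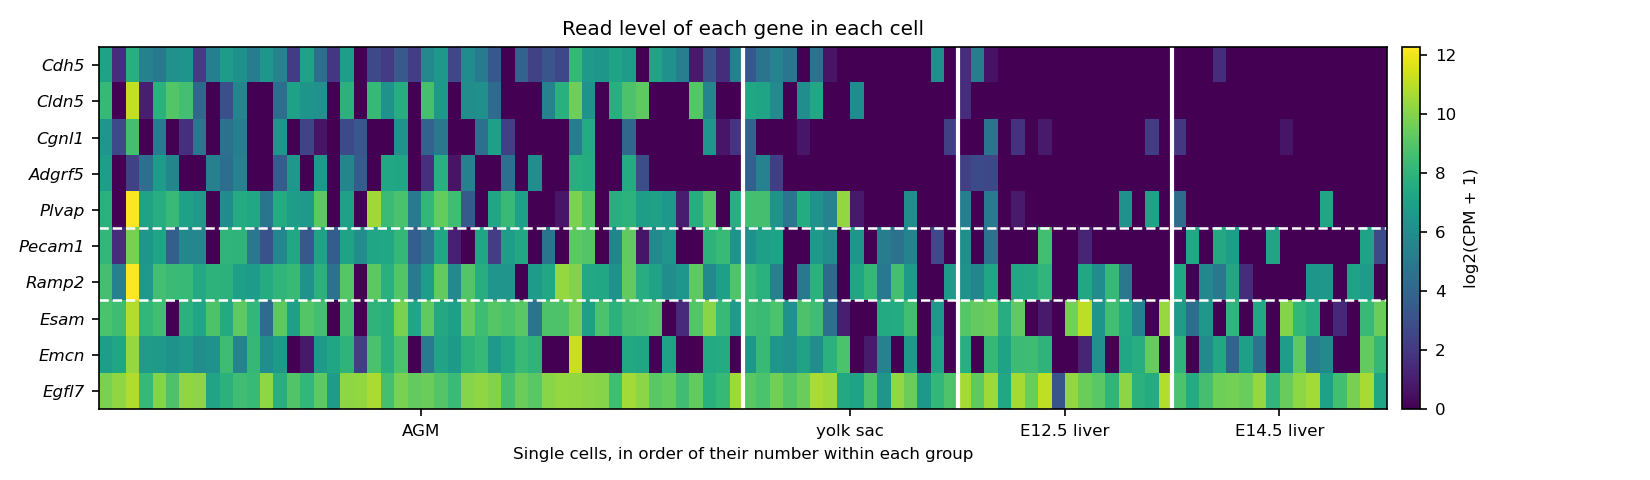
Level of each of the 10 genes in each of the 96 cells, as log2(CPM + 1) on the colour scale; columns are cells in order of their number, solid white lines separate the groups and dashed lines separate lost, mixed and persisting genes from top to bottom. The 5 lost genes have a read in 25 to 45 of the 48 AGM columns and in 0 to 5 of the 16 columns of each liver group, whereas Egfl7 has reads in all 96 columns.

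The adhesion molecules of the cell border came first. Cdh5 (ENSMUSG00000031871.9, chr8:104101625-104144511, + strand, GRCm38) encodes VE-cadherin, the adhesion protein of endothelial adherens junctions. Per cell it ranged from 0 to 283 CPM in the AGM group with a median of 35.3, and a read was found in 45 of 48 cells. In the yolk sac the range was 0 to 67.6 CPM with a median of 0, and 7 of 16 cells had a read. In the E12.5 liver 3 of 16 cells had a read, cell 2 at 33.9 CPM, cell 1 at 2.0 and cell 3 at 0.534, and at E14.5 only cell 4 had any, at 2.08 CPM from 4 reads. Cdh5 was thus read in most AGM cells, at 10 CPM or more in 29 of 48. It was present in under 50% of yolk sac cells and nearly absent from liver cells. The groups still overlapped, since 3 AGM cells had no read and E12.5 cell 2 lay near the AGM median. The pooled level was 48.5 CPM (interval 46.8 to 50.3) in the AGM group and 13.5 CPM (12.0 to 15.1) in the yolk sac. In the liver it was 3.52 CPM (2.73 to 4.47) and then 0.194 CPM (0.0529 to 0.498). Over AGM cells the log2 ratio was -1.77, -3.45 and -5.37 in the 3 other groups. E12.5 cell 2 held 95.5% of its group's Cdh5 reads, and without it the E12.5 ratio was -5.40. The yolk sac ratio was -2.19, past 4-fold, without yolk sac cell 15. Every E11.5 cell was sorted as CD144+ at the protein level, the 3 AGM and 9 yolk sac cells without a Cdh5 read included.

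Pecam1 (ENSMUSG00000020717.19, chr11:106654217-106750628, - strand) encodes CD31, an adhesion receptor of endothelial borders that platelets and leukocytes also carry. AGM cells ranged from 0 to 857 CPM with a median of 59.2, and yolk sac cells from 0 to 136 CPM with a median of 28.2. In the liver the median was 0 at both stages, with 4 of 16 cells positive at E12.5, the highest at 378 CPM, and 6 of 16 at E14.5, the highest at 165.03 CPM. Most liver cells thus had no Pecam1 read, and the positive ones lay within the AGM range. Its pooled levels were 129.7, 46.9, 30.1 and 45.1 CPM. Against AGM cells the log2 ratio was -1.45 in the yolk sac and, in the liver, -2.07 at E12.5 and -1.50 at the later stage. E12.5 cell 7 held 80.6% of that group's Pecam1 reads, and the E12.5 ratio was -4.18 without it and -1.91 without AGM cell 3. The gene was mixed because its level was not 4-fold lower at E14.5, while its share of cells, 25% and 37.5% in the liver, was under 50% of the AGM share of 85.4%.

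Esam (ENSMUSG00000001946.14, chr9:37528078-37538319, + strand) encodes an immunoglobulin-family adhesion molecule of endothelial tight junctions and platelets. Cells ranged from 0 to 1845 CPM (median 361) in the AGM group and from 0 to 459 (median 137) in the yolk sac. Liver cells ranged from 0 to 2122 CPM (median 287) at E12.5 and from 0 to 1005 (median 101) at E14.5. The 4 groups overlapped over nearly their whole range, and 44 of 48, 12 of 16, 13 of 16 and 11 of 16 cells had a read. Pooled levels were 398.0, 197.03, 422.1 and 212.9 CPM. Relative to AGM cells the log2 ratio was -1.01 in the yolk sac, 0.08 at E12.5, where it turned to -0.15 without cell 10, and -0.90 at E14.5, where it was -1.46 without cell 9. The pooled AGM and E12.5 levels thus lay close together, and those of the yolk sac and E14.5 liver lay below both, all within the spread between cells.

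Cldn5 (ENSMUSG00000041378.1, chr16:18776847-18778262, + strand, 1 exon) encodes claudin-5, the main claudin of endothelial tight junctions. AGM cells ranged from 0 to 2243 CPM with a median of 47.8, and 31 of 48 had a read. In the yolk sac 6 of 16 cells had reads, all between 60.9 and 159.2 CPM, and the other 10 had none. In the liver there were 2 reads in all, both in E12.5 cell 1, which is also the liver cell with more than 9000 genes, and none at E14.5. Yolk sac cells thus had either a clear level or none, and liver cells had almost none. A count of 0 in 16 cells allows a share of up to 18.75%, taken as 3 cells of 16. Pooled levels were 178.4, 47.3, 0.105 (0.0127 to 0.379) and 0 CPM. The ratio of AGM to E12.5 liver in CPM was 1699.8, with a counting interval from 470.5 to 14038. With the E14.5 count of 0 set to the floor of 3 reads, the ratio of AGM to E14.5 liver was 1224. AGM cell 3 held 23.9% of the AGM reads, and the log2 ratio of E12.5 over AGM was -7.34 with it and -6.98 without it. In the yolk sac the ratio of -1.89 was -2.25, past 4-fold, without yolk sac cell 1.

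Cgnl1 (ENSMUSG00000032232.14, chr9:71626509-71771602, - strand) encodes paracingulin, a cytoplasmic protein that links junctions to the actin cytoskeleton. It was read in 25 of 48 AGM cells, from 0 to 399 CPM with a median of 0.628, in 3 of 16 yolk sac cells up to 14.04 CPM, in 4 of 16 E12.5 cells up to 25.6 CPM, and in 2 of 16 E14.5 cells up to 2.79 CPM. It was the least abundant of the junction genes per length in AGM cells, at 3.41 CPM per kilobase of exon (RPKM), and was carried by few reads in every other group (34, 56 and 5). Its log2 ratios over AGM cells were -3.46, -2.82 and -4.48 in the other groups. E12.5 cell 3 held 85.7% of that group's reads, and without it the E12.5 ratio was -4.24. Without yolk sac cell 1 the yolk sac ratio was -4.37. Its class rests on a share of 25% at E12.5 against an AGM share of 52.1%, just under 50% of it. Cgnl1 was lost under 77 of 93 settings and not under the other 16, of which 12 leave out 1 E12.5 cell each (any but cells 3, 5, 7 and 15).

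**Figure D2:**
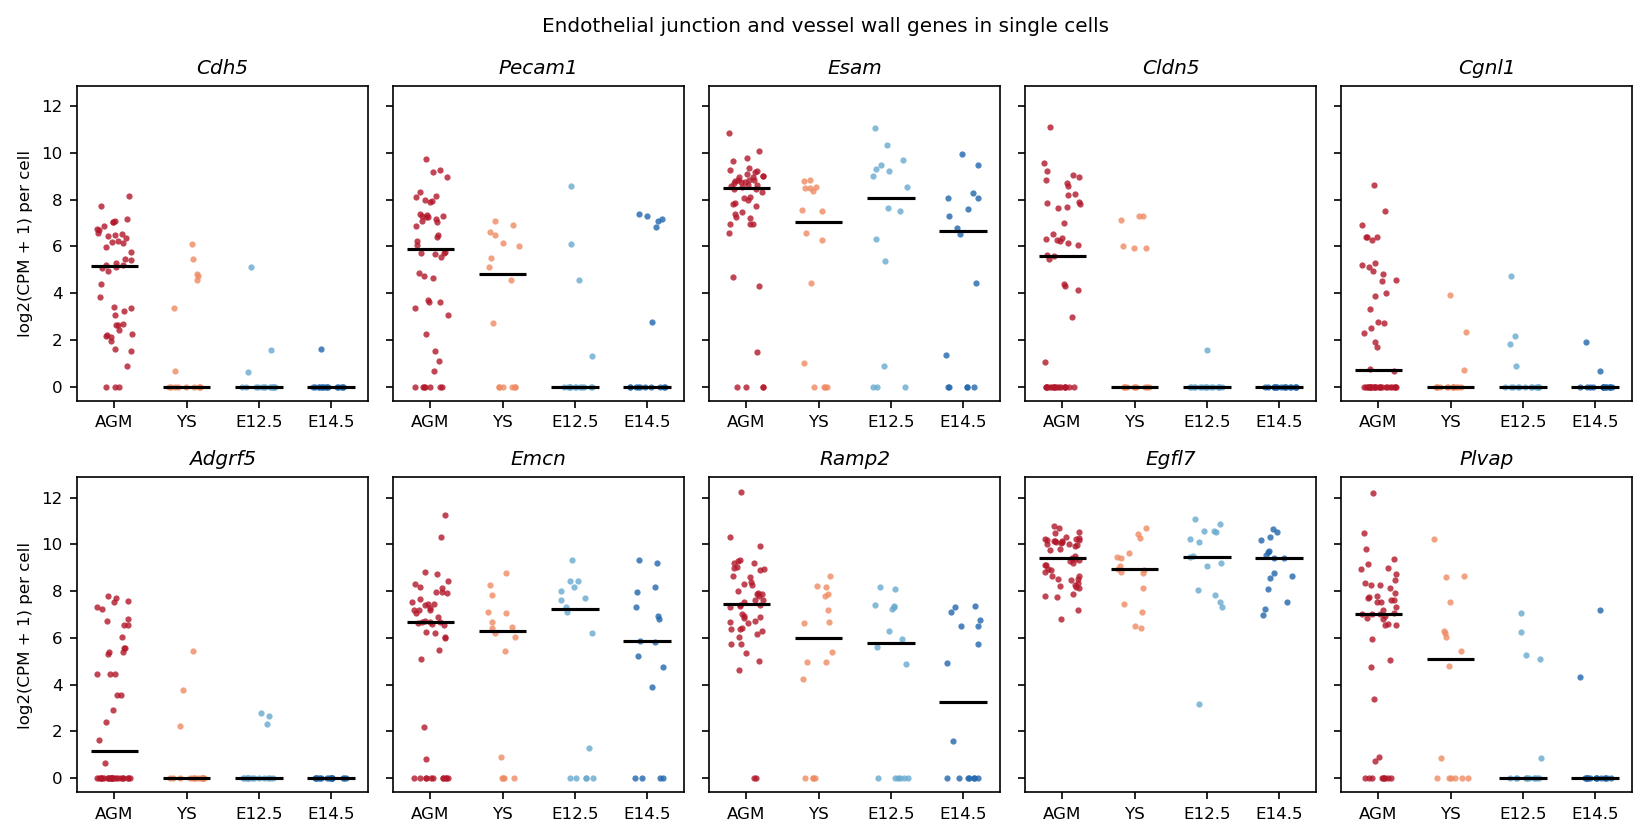
Level of each of the 10 genes in single cells of the AGM region (48 cells), yolk sac (YS, 16), E12.5 liver (16) and E14.5 liver (16), as log2(CPM + 1); each point is a cell and each bar is the group median. The medians of Cdh5, Cldn5, Cgnl1, Adgrf5 and Plvap are at 0 in both liver groups, and those of Egfl7 are level across the 4 groups.

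The surface and secreted proteins of the vessel wall split in the same way. Adgrf5 (ENSMUSG00000056492.5, chr17:43360451-43459557, + strand) encodes an adhesion G protein-coupled receptor of endothelium and lung epithelium. AGM cells ranged from 0 to 221.3 CPM with a median of 1.34, and 25 of 48 had a read. Yolk sac cells 1, 2 and 3, the 3 yolk sac cells with more than 9000 genes, were the only ones there with a read, at 12.48, 41.8 and 3.73 CPM. In the E12.5 liver cells 1, 2 and 3 had 4.0, 5.82 and 5.34 CPM, and they are the same 3 cells that had Cdh5 reads, while no E14.5 cell had a read. Adgrf5 was therefore seen outside the AGM region in 6 cells. Pooled levels were 37.6, 3.72, 1.31 and 0 CPM. With the E14.5 count of 0 set to the floor of 3 reads, the ratio of AGM to E14.5 liver in CPM was 258.2. In the yolk sac the log2 ratio over AGM was -3.03 and -5.06 there without the cells of more than 9000 genes, which leaves no yolk sac read; without yolk sac cell 2 alone it was -3.99. At E12.5 it was -4.06.

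Plvap (ENSMUSG00000034845.6, chr8:71497765-71511752, - strand) encodes the protein of the diaphragms that span endothelial fenestrae and caveolae. AGM cells ranged from 0 to 4721 CPM with a median of 130.6, and 39 of 48 had a read. Yolk sac cells ranged from 0 to 1213 CPM with a median of 34.4, and 10 of 16 had a read. In the liver 5 of 16 cells had a read at E12.5, up to 134 CPM, and 2 of 16 at E14.5, cell 1 at 18.8 and cell 12 at 146.7 CPM. All liver cells lay within the AGM range, but most had no read. Pooled levels were 308.1, 142.97, 20.3 and 12.9 CPM. Over AGM the log2 ratio was -1.10, -3.86 and -4.47, and the last was -6.99 without E14.5 cell 12, which held 89.8% of its group's reads. The yolk sac value was -1.70 without yolk sac cell 8 and -0.63 without AGM cell 3, and the E12.5 value -4.45 without E12.5 cell 15 and -3.39 without AGM cell 3. Yolk sac cell 8 held 37.3% of the yolk sac reads. That cell had 1213 CPM of Plvap and 437 of Emcn with no read of Cdh5, Pecam1 or Cldn5 and none of 9 other endothelial markers.

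Emcn (ENSMUSG00000054690.17, chr3:137341067-137432185, + strand) encodes endomucin, a sialomucin of venous and capillary endothelium that HSCs also carry. Cells ranged from 0 to 2480, 437, 651 and 636 CPM in the 4 groups, with medians of 101.9, 78.8, 148.4 and 57.1 CPM. It was read in 37 of 48, 12 of 16, 11 of 16 and 12 of 16 cells, and the 4 groups overlapped throughout. Pooled levels were 186.98, 105.1, 181.4 and 158.02 CPM. The intervals of AGM (183.5 to 190.5) and E12.5 (175.4 to 187.5) overlapped. As log2 ratios over AGM cells these were -0.82, -0.04 and -0.24. The liver values turned to 0.25 and 0.06 without AGM cell 36, which held 19.9% of the AGM reads, so that no order between AGM and liver can be given.

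Ramp2 (ENSMUSG00000001240.13, chr11:101246028-101259546, + strand) encodes the partner protein that turns the receptor Calcrl into an adrenomedullin receptor. AGM cells ranged from 0 to 4886 CPM with a median of 175.7, and yolk sac cells from 0 to 401 with a median of 69.7. Liver cells ranged from 0 to 292 CPM at E12.5 with a median of 54.4, and from 0 to 162.9 at E14.5 with a median of 15.6. A read was found in 46 of 48, 12 of 16, 10 of 16 and 9 of 16 cells, so that the gene stayed in most cells of every group at a lower level. Pooled levels were 351.6, 117.5, 83.1 and 53.3 CPM, and the log2 ratios over AGM were -1.57, -2.07 and -2.70. The E12.5 value was -1.65 without AGM cell 3, which held 26.5% of the AGM reads. Of the exon length of Ramp2, 33.4% overlaps Vps25 on the same strand, for which the table holds 947 reads in all, and how the authors' counting split reads there is not stated.

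Egfl7 (ENSMUSG00000026921.18, chr2:26580014-26593120, + strand) encodes a secreted protein of the vessel wall and hosts the endothelial miRNA miR-126. It was read in all 96 cells. AGM cells ranged from 109.9 to 1753 CPM (median 679) and yolk sac cells from 84.1 to 1649 (median 487). Liver cells ranged from 7.99 to 2188 CPM (median 715) and, at the later stage, from 127 to 1602 (median 689.6). The lowest cell was E12.5 cell 8, the one with no haematopoietic marker, and the next lowest of that group had 159.8 CPM. Pooled levels were 771.9, 644.3, 919.1 and 754.4 CPM. The log2 ratios over AGM of -0.26, 0.25 and -0.03 were small beside the spread between cells, and the last took either sign over the settings. Small parts of its exons overlap Agpat2 on the other strand (1.79% of its exon length) and Gm20532 on the same strand (7.37%).

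**Figure D3:**
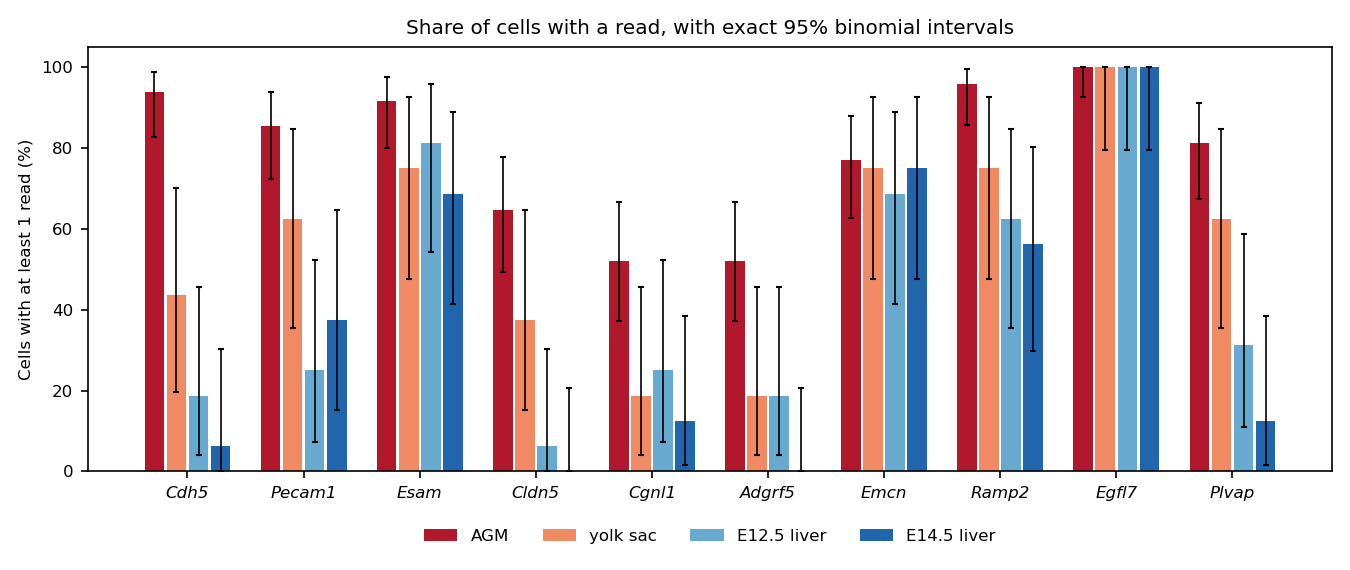
Share of cells with at least 1 read of each gene in each group, as a bar from 0, with exact 95% binomial intervals over 48, 16, 16 and 16 cells. For Cdh5, Pecam1, Cldn5, Ramp2 and Plvap the AGM interval lies wholly above both liver intervals, for Cgnl1 and Adgrf5 it overlaps at least the E12.5 interval, and for Esam, Emcn and Egfl7 the 4 intervals overlap.

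Per length, the order of the genes changed between the groups. In AGM cells it ran Egfl7 (215.5 RPKM), Plvap (155.04), Esam (138.8), Cldn5 (126), Ramp2 (107), Emcn (34.6), Pecam1 (20.8), Cdh5 (11.54), Adgrf5 (4.18) and Cgnl1 (3.41). In E14.5 liver it ran Egfl7 (210.7 RPKM), Esam (74.2), Emcn (29.2), Ramp2 (16.1), Pecam1 (7.25) and Plvap (6.503), with Cdh5 and Cgnl1 under 0.05 and Adgrf5 and Cldn5 at 0. Without AGM cell 3 Plvap (111.95 RPKM) came after Esam (129.02) in AGM cells, and the other genes kept their places. The yolk sac kept the AGM order but for Ramp2 and Cldn5, at 35.6 and 33.4 RPKM. These values use exon lengths of a later annotation than the table's identifiers and are approximate.

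Promoter sequences were at hand for Cldn5, Cgnl1, Adgrf5, Emcn and Egfl7, from RefSeq on GRCm38.p6, each from 250 bases before to 50 bases after a start site. They were searched on both strands for the motifs ETS (CAGGAAG or CCGGAAG), the GATA factor motif (AGATAAG), RUNX (TGTGGTT), FOX (TGTTTAC), AP-1 (TGACTCA) and E-box (CAGCTG). Printed here are 2 lost genes, Cldn5 (chr16:18776597-18776896, + strand) and Adgrf5 (chr17:43360181-43360480, + strand), and 2 persisting genes, Emcn (chr3:137340828-137341127, + strand) and Egfl7 (chr2:26580833-26581132, + strand), 5′ to 3′ with motif matches in capitals.
Cldn5: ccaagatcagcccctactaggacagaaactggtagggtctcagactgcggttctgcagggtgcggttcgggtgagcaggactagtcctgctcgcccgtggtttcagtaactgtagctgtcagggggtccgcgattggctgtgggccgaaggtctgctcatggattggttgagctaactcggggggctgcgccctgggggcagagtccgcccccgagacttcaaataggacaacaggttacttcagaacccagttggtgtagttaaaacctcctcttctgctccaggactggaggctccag
Adgrf5: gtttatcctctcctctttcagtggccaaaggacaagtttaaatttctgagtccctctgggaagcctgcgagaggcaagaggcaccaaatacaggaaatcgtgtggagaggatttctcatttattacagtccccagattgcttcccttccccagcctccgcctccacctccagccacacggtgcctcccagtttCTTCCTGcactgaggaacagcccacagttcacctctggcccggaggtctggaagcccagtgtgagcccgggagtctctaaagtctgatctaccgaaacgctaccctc
Emcn: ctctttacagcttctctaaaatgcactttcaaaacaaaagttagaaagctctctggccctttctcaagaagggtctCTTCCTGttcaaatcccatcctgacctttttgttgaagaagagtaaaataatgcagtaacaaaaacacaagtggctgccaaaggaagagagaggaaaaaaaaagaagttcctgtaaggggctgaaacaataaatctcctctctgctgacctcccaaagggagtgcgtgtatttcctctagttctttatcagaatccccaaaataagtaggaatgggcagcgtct
Egfl7: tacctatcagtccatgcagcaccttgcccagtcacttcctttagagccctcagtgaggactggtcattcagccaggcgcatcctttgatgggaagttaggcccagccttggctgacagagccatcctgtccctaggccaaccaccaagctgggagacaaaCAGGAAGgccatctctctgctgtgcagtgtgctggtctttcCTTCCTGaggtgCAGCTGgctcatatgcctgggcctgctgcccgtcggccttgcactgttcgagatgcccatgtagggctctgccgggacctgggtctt
The capitals mark CAGGAAG or its reverse complement in Adgrf5, Emcn and Egfl7, and CAGCTG in Egfl7. No 2 matches overlap. The Cldn5 and Cgnl1 windows held no match. Of 32851 promoters of the same length, 13.3% hold CAGGAAG, 8.86% CCGGAAG, 3.04% AGATAAG, 5.27% TGTGGTT, 3.65% TGTTTAC, 5.2% TGACTCA and 16.3% CAGCTG. The ETS motif was thus found in a printed window of a lost gene as well as in those of both persisting genes printed. A match is a description of these letters only. Egfl7 and Adgrf5 have further start sites. Of their windows, chr2:26583615-26583914 of Egfl7 held CAGGAAG. Those at chr2:26586386-26586685 of Egfl7 and chr17:43389216-43389515 of Adgrf5 held no match. The host relation of Egfl7 is shown by the mature miR-126a-3p, which lies at chr2:26591402-26591423 (+ strand) inside the Egfl7 locus and whose own level was not analysed here, with its seed (bases 2 to 8) in capitals.
miR-126a-3p: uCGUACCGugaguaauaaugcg

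Counted cell by cell, the number of the 10 genes with a read had a lowest, median and highest value of 4, 8 and 10 in AGM cells. For yolk sac cells these were 1, 5 and 10, for E12.5 liver cells 1, 4 and 9, and for E14.5 liver cells 2, 4 and 6. All 10 genes were read in 13 of 48 AGM cells and in 1 of 16 yolk sac cells. Thinning every cell to 690000 reads, which left out 5 AGM, 2 E12.5 and 2 E14.5 cells, gave medians of 8, 5, 4.5 and 4. The order of the medians was thus the same at equal read number, although the ranges overlapped. Thinning left the number of all genes detected unequal, with medians of 5287, 5206.5, 4173 and 5038 per cell. As a description of the lost genes, whose choice used the share of cells with a read, 9 of 16 cells of the earlier liver and 12 of 16 of the later had none of the 5, and 4 of 16 yolk sac cells had none.

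Reads of lost genes were found in 7 of 16 cells of the earlier liver and 4 of 16 of the later. Of 537 such reads at E12.5, cells 13 and 15, almost wholly by Plvap, held 25.1% and 28.9%, and cells 1, 2 and 3 held 8.57%, 13.97% and 22.5%. Of 275 at E14.5, cell 12 held 86.9%, all of Plvap. By number of genes other cells led. E12.5 cells 1 and 3 each had 9 of the 10 genes with a read, and cell 2 had 5. The 3 E12.5 cells with Cdh5 all had Adgrf5, Esam, Ramp2 and Egfl7, and all had reads of the haematopoietic genes Ptprc and Runx1. Cell 1 had more than 9000 genes and 12 of 12 haematopoietic markers with 8 of 9 endothelial markers, and whether it held 1 cell was not tested. Cell 3 had 5477 genes, 7 of 12 haematopoietic markers and 5 of 9 endothelial markers. At E14.5 no cell had more than 2 of the 5 lost genes.

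**Figure D4:**
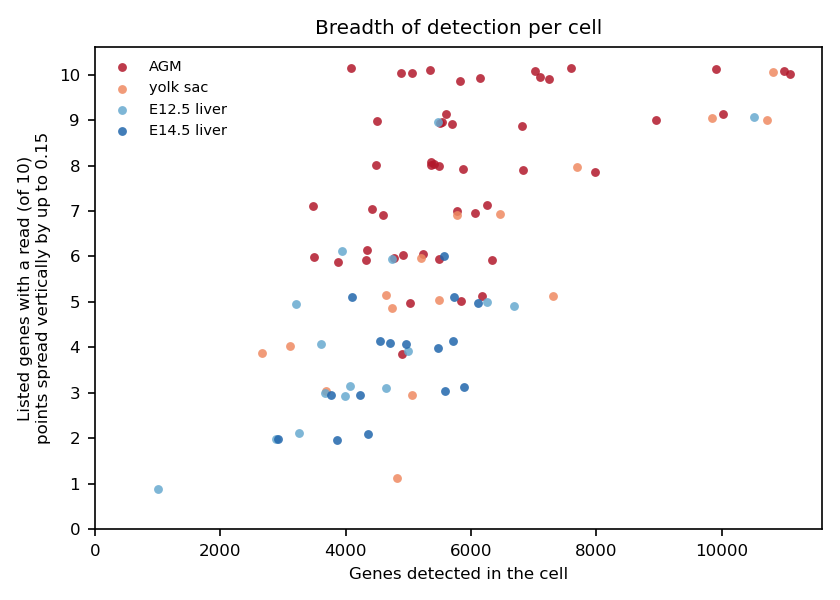
Number of the 10 genes with a read in each cell against the number of all genes detected in that cell, with points coloured by group and spread slightly in height. E14.5 liver cells lie at 2 to 6 genes and E12.5 liver cells at 1 to 9, whereas 13 AGM cells lie at 10.

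The number of genes detected moved with this count. In the 8 cells with more than 9000 genes, 9 or 10 of the 10 genes had a read, and among the other 13 yolk sac cells the count ran from 1 to 8. Without those 8 cells the medians stayed at 8, 5, 4 and 4. Within the AGM group, Spearman's rho across 48 cells was 0.44 between this count and the genes detected, 0.67 with the number of 9 other endothelial markers read and 0.47 with the number of 12 haematopoietic markers. These cells share their group and differ in depth, and the part of gene number in the counts was not tested beyond the thinning above.

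In AGM cells the endothelial genes were read together with haematopoietic ones. Of 45 AGM cells with Cdh5, 27 had Ptprc, the pan-leukocyte CD45 gene, and 39 had Runx1, the transcription factor of haematopoietic emergence. Among all 48 AGM cells, Ptprc was read in 28 and Runx1 in 42. Of 31 AGM cells with Cldn5, 21 had Ptprc and 27 had Runx1. All 31 had Ramp2, which was read in 46 of 48 AGM cells. In the yolk sac, 6 of 7 cells with Cdh5 had Ptprc and all 7 had Runx1, beside 9 and 15 of all 16 cells. Reads of lost genes were thus not limited to cells without these haematopoietic transcripts. For Cdh5, read in 45 of 48 AGM cells, this overlap in AGM cells had to lie near the group shares. The 9 other endothelial markers (Kdr, Tek, Flt1, Tie1, Eng, Sox17, Sox18, Erg and Fli1) summed to 37.7 to 4150 CPM per AGM cell (median 301.2), and at most to 605, 670.02 and 472 CPM in the other groups (medians 201.1, 226.6 and 173.96), where some cells had none. Of these markers Kdr was at 0 at E12.5 and Sox17 at E14.5. Kdr, the VEGF receptor 2 gene, had a single read in the liver, at E14.5, against 38.95 CPM in AGM cells, whereas Fli1, an ETS factor also active in blood cells, stood at 58.1 and 42.99 CPM in the liver against 35.1 (both chosen after their values were seen). The Fli1 log2 ratios of 0.71 and 0.28 were 0.07 when E12.5 cell 11 was left out and -0.54 when cell 9 of the later liver was. Hepatocyte markers were all at 0 in the E14.5 liver cells for the 5 genes in the table, and summed to at most 5.0 CPM per cell at E12.5.

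Across all 96 cells the genes most like each member were found by Spearman's rho of log2(CPM + 1) among 9965 genes. Cdh5 was most like Igf2 (0.70), Fn1 (0.68) and H19 (0.65), Cldn5 like Tspan18 (0.67), Plvap (0.67) and Mogat2 (0.66), and Adgrf5 like Vwf (0.68), Fn1 (0.58) and Cldn5 (0.57). Plvap was most like Cldn5 (0.67), Mogat2 (0.63) and H19 (0.63), and Ramp2 like Cldn5 (0.64), Hes1 (0.61) and Skil (0.58). Pecam1 was most like S1pr1 (0.55), Sncg (0.52) and Nrp1 (0.50), and Cgnl1 like Sncg (0.54) and Myzap (0.50). Over all cells no gene reached 0.5 for Esam, Emcn or Egfl7. The values mix differences between groups with differences between cells. In AGM cells alone the highest values were 0.55 for Esam (Ttc4), 0.56 for Emcn (Actr6) and 0.54 for Egfl7 (Maged2). Within the 48 AGM cells alone rho was 0.69 for Cldn5 and Ramp2, against 0.64 over all cells, and 0.58 for Pecam1 and Cgnl1, against 0.45. Other pairs were lower within AGM cells: Cldn5 and Plvap at 0.54 against 0.67, Adgrf5 and Cldn5 at 0.40 against 0.57, and Cdh5 and Cldn5 at 0.29 against 0.58. The 3 genes most like Cdh5, Adgrf5 or Plvap over all cells were not among the first 3 within AGM cells.

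Other genes of junctions and the vessel wall were taken from 8 lists with 53 genes, of which 51 had at least 30 reads. At least 4-fold lower than in AGM cells were 10 of the 51 genes in the yolk sac, 20 in the earlier liver and 23 in the later, where 5.5%, 11.1% and 10.7% of all genes were. At least 4-fold higher were 0, 1 and 1, where 2.09%, 5.72% and 5.43% of all genes were. Their median log2 ratios were -0.95, -1.40 and -1.57. Of the 51 genes, 37 could be put in a class, and 6 of these were lost, 16 persisting and 15 mixed, beside 3.01%, 69.4% and 27.6% of all genes that could.

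Of 9 adherens junction genes 2 were at least 4-fold lower at E12.5 and 4 at E14.5, where 11.1% and 10.7% of all genes were, with median log2 ratios of -1.46 and -1.73. Jup, plakoglobin, was at -3.45 at E12.5 and 0.43 in the later liver, where it turned to -0.88 without cell 13. Vcl, the actin linker vinculin, was at 0.11 (-1.35 without E12.5 cell 15) and, with no E14.5 read, -4.11. Ptprb, the endothelial phosphatase VE-PTP, was at -1.68 (-3.98 without E12.5 cell 11) and, with no E14.5 read, -3.98. Ctnnb1, β-catenin, which binds the tail of VE-cadherin, was named after its values were seen as the only persisting gene of the list, with 423 CPM in AGM cells, 199.4 at E12.5 and 142.8 in the E14.5 liver. Of 6 tight junction genes 2 were at least 4-fold lower at each stage, beside the same shares of all genes. Tjp1, the scaffold ZO-1, had no read at E14.5 against 27.1 CPM in AGM cells and 34.95 at E12.5, and its E12.5 ratio of 0.35 was -0.68 without E12.5 cell 15. Jam2 was at -2.16 (-3.21 without E12.5 cell 13 and -1.72 without AGM cell 30) and -3.58. The Jup reads at E12.5 came from 1 cell.

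Of 3 connexins, the channel proteins of gap junctions, the arterial genes Gja4 and Gja5 had no read in either liver group. Gja4 had 86.2 CPM in AGM cells but was read in 7 of 48 of them, and without AGM cell 3 its log2 ratio over AGM at E12.5 was -4.12 instead of -6.45. Gja1 was at 15.5 CPM in AGM cells and at 31.4 and then 1.60 in the liver, and its E12.5 log2 ratio of 0.98 was 0.07 without E12.5 cell 11. The 5 Rap1 and CCM genes, regulators of junction stability, had none past 4-fold, with medians of 0.15 and -0.27. Rasip1, a Rap1 effector of vessel lumen formation, was at -0.87 and -1.45, and, with cell 11 of either group left out, at -1.60 and -2.08. Krit1 was at 0.92 and 0.25, and both turned, the first to -0.54 without cell 16 and the second to -0.41 without cell 14 of their groups, so that no direction can be given.

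The 3 receptor partner genes of adrenomedullin and its relatives differed in direction. Calcrl, the receptor that Ramp2 serves, was at 52.0 CPM in AGM cells, 31.1 and 18.95 in the liver, with a read in 11 and 12 of 16 cells there. Its log2 ratio was -0.73 at E12.5 (-1.42 without cell 3) and -1.41 at E14.5 (-2.96 without cell 9). Ramp3, the alternative adrenomedullin partner, had 30.8 CPM in AGM cells and no read in either liver group. Ramp1, the partner that makes Calcrl a receptor for calcitonin gene-related peptide, was at 72.4, 86.9, 350.7 and 409 CPM in the 4 groups. Its log2 ratio over AGM was 2.26 at E12.5 and 2.48 at E14.5, and leaving out any 1 cell kept these between 2.10 and 2.64. The ligand gene Adm had 51 reads in AGM cells, all in 1 cell. So Ramp2 and Ramp3 were lower and Ramp1 higher in the liver cells.

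Endothelial surface genes had 5 of 10 at least 4-fold lower at E12.5 and 3 at E14.5, beside 11.1% and 10.7% of all genes. Podxl, a sialomucin of the apical surface, had 15.3 CPM in AGM cells, no read in the earlier liver and 1.12 CPM in the later (log2 ratio -2.94, and -3.95 without E14.5 cell 1). Vwf, the clotting factor carrier that megakaryocytes also make, was at 233.1 CPM in AGM cells, from 39 of 48 cells, and at 25.8 from 1 cell and 9.62 from 3 cells in the liver. Its E12.5 log2 ratio of -3.13 was -7.87 without cell 2. Of 7 megakaryocyte markers, which summed to medians of 443, 291, 243 and 468 CPM per cell, the platelet receptor genes Gp1ba and Gp1bb had no read in either liver group. Mcam had no read in the liver, against 10.4 CPM from 6 AGM cells. Adgrl4, an adhesion receptor of endothelium related in type to Adgrf5, was named after its values were seen: its levels were 145.9, 160.1, 368 and 380.3 CPM, and it was read in 16 of 16 cells at both liver stages.

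The last 2 lists belong to caveolae and the basement membrane. Of 4 caveolae genes 2 were at least 4-fold lower at E12.5 and 3 at E14.5, beside 11.1% and 10.7% of all genes. Cav1, the main protein of caveolae, had no read in the liver, but it was read in only 3 AGM cells. Cavin2 had none in the liver against 15.9 CPM from 9 AGM cells (log2 ratio -4.08, and -2.28 without AGM cell 3). Cav2 was persisting, at -0.77 at E12.5 (-3.19 without cell 5) and -0.85 at E14.5. Cavin1 was at 0.55 at E12.5 (-1.55 without cell 9) and -2.69 at E14.5. Of 10 basement membrane genes 6 were at least 4-fold lower at E12.5 and 7 at E14.5, beside 11.1% and 10.7% of all genes, with medians of -3.46 and -3.34. Sparc, a collagen-binding matrix protein, was at 285 CPM in 39 AGM cells and at 1.15 and 17.6 CPM in the liver. Without E14.5 cell 15 its log2 ratio over AGM at E14.5 was -8.09 instead of -3.94. The laminin gene Lamb1, at 22.8 CPM in 18 AGM cells, and the perlecan gene Hspg2, at 10.8 CPM in 18, had no read in either liver group. Mesenchymal markers were low beside these: in E12.5 cells 5 of 7 and in E14.5 cells 6 of 7 were at 0, and in AGM cells their summed level had a median of 0.266 CPM and a highest value of 809.8. Their part in the matrix gene levels of AGM cells was not tested.

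**Figure D5:**
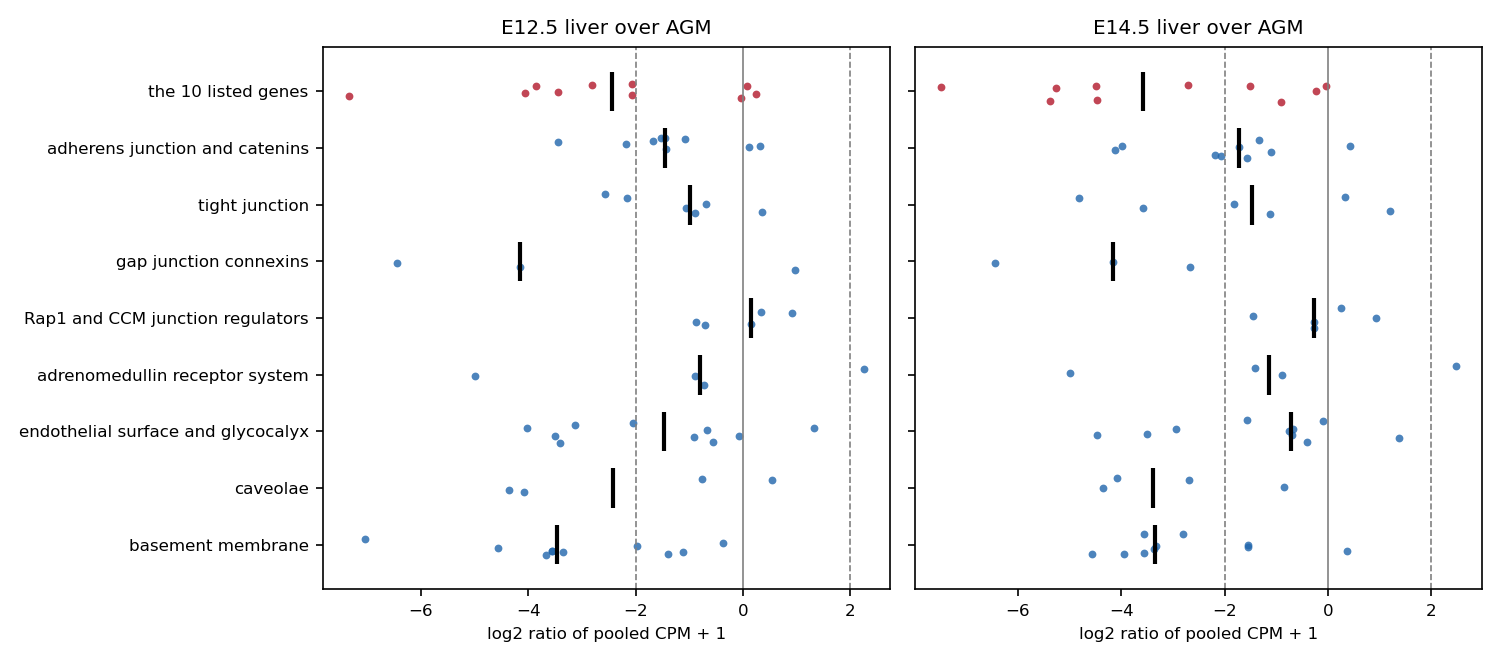
Log2 ratio of pooled CPM + 1 over AGM cells at E12.5 (left) and E14.5 (right) for the 10 genes (red) and for the 8 lists of related genes (blue); each point is a gene, thick bars are list medians and dashed lines mark 4-fold. The 10 genes have medians of -2.44 and -3.59, the basement membrane list -3.46 and -3.34, and the Rap1 and CCM list 0.15 and -0.27.

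Between E12.5 and E14.5 liver none of the 10 genes was past 4-fold with 1 CPM added, which weighs on genes at so low a level. The gates of these groups differed, so that embryonic day and gate cannot be told apart here. As plain ratios of CPM, Cdh5 was 18.1-fold (6.75 to 68.3) and Cgnl1 12.1-fold (4.89 to 38.7) higher at E12.5, on counting error alone. The log2 ratio of E14.5 over E12.5 ran from -1.92 for Cdh5 to 0.57 for Pecam1, with a median of -0.62. The Cdh5 value was 0.02 without E12.5 cell 2, and the Pecam1 value was 2.67 without E12.5 cell 7. For Cgnl1 the value of -1.66 was -0.24 without E12.5 cell 3. Adgrf5 had 25 reads at E12.5 and none at E14.5. With that 0 set to the floor of 3 reads, the CPM ratio was 9.0 in favour of the earlier stage. The 3 persisting genes had log2 ratios of -0.98 (Esam), -0.20 (Emcn) and -0.28 (Egfl7). Between the E11.5 tissues, all 10 genes were lower in yolk sac cells, from -0.26 for Egfl7 to -3.46 for Cgnl1, although both were sorted by the same gate. The median of all genes was also below 0 there, at -0.20, near the Egfl7 value. Globin genes took at least 1% of reads in 1 E12.5 and 4 E14.5 cells. Without those cells the counts of genes 4-fold lower than in AGM cells were again 7 and 6.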

How the data were processed

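Single cells were sorted at 1 cell per well and profiled with a SMART-Seq kit, per the labels. The authors deposited 1 table of raw read counts, whole numbers with a column per cell. The submitters' processing notes name FastQC, Trimmomatic 0.36, STAR, HTSeq and the build mm10 (GRCm38). The annotation and the strand setting are not given in the sources used here. All 96 columns matched a sample by name.

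Of 19949 rows, 113 shared a symbol with an earlier row and were summed to it, which gave 19836 genes, of which 15239 had at least 30 reads. No pair of cells had identical counts. Every cell had at least 1000 genes. Pooled depth was 60280645 (AGM), 22306075 (yolk sac), 19053123 (E12.5) and 20585452 (E14.5) reads. Reads were summed per group and scaled to CPM, and 1 CPM was added before log2 ratios. Intervals are exact Poisson (levels) and Clopper-Pearson (shares). No test was made. Doublets were not called, as the sort aimed at 1 cell a well. The calculation was tested on simulated data. Python 3.11.15, numpy 2.4.6, pandas 2.3.3, scipy 1.17.1 and matplotlib 3.10.9 were used.

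The 10 genes, the lists and the markers were chosen with earlier results of these data known. All 10 genes are named, with at most 4 genes of each list by absolute ratio per comparison and up to 3 most similar genes with rho of at least 0.5. Cavin1 and Cavin2 were matched by identifier. Cgn and Radil had under 30 reads, and Alb was not analysed here. Coordinates, exon lengths and overlaps come from GENCODE M21, whose identifiers match those of the table up to the version. Alternatives were other scalings, cell and read filters, thinning, other added constants, a 2-fold threshold, detection at 10 CPM and leaving out each cell. Leaving out cells with more than 9000 genes, and using only AGM cells numbered 1 to 16, are alternatives chosen after seeing the data.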

Additional observations from a re-analysis of the deposited data

How the results depend on the processing

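No paired analysis was possible because the numbers in the labels name no animal or litter and no result comes from a test. Cdh5, Cldn5, Adgrf5 and Plvap were lost, and Esam, Emcn and Egfl7 persisting, under all 93 settings. The counts of lost and persisting genes ran from 4 to 6 and stayed at 3. The count at least 4-fold lower in yolk sac than AGM cells, 2, was 4 when cells' CPM were averaged (Cdh5 and Cldn5 added), 0 with 10 CPM added, 4 without cells of more than 9000 genes, 5 with AGM cells 1 to 16 only and 8 at 2-fold. At E12.5 over AGM, 7 became 4 with 10 CPM added. At E14.5 over E12.5, 0 became 3 when a 3-read floor replaced the added CPM and 3 at 2-fold (Cdh5, Cgnl1 and Adgrf5 in both). These follow from the added constant and the threshold where those were changed, and the cause was not tested otherwise. Leaving out each cell gave 2 to 3 (yolk sac), 5 to 7 (E12.5), 6 in each case (E14.5) and, for E14.5 over E12.5, 0 to 1 lower and 0 to 1 higher. Of 40 log2 ratios, 15 were past 4-fold. None of these changed sign, and 6 fell under 4-fold in some setting. Of the other 25, 7 changed sign and 8 passed 4-fold. Without a minimum on reads the share of all genes 4-fold lower at E12.5 was 8.56%. Depth limits the lowest levels: 1 read in a liver group is worth about 0.05 CPM.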
